A study of Mus musculus with 9 samples.

Results

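The genes described here are 10 genes of neutrophil granules and of the neutrophil cytoplasm, found by symbol among the 51912 genes of the count table. Mpo, Elane, Prtn3 and Ctsg encode proteins of the primary (azurophil) granules, Ltf, Ngp, Camp and Lcn2 encode proteins of the secondary (specific) granules, and S100a8 and S100a9 encode the subunits of calprotectin, which fills the neutrophil cytoplasm. All 10 had a row in the table and all 10 passed the filter on low counts. They were followed in sorted pre-cDCs, the committed precursors of cDCs. BM gave 3 samples of each genotype, WT and DNGR-1 KO, and spleen gave 1 sample of WT and 2 of DNGR-1 KO. The cells came from untreated mixed chimeras: BL/6 CD45.1/2 mice were lethally irradiated and given equal parts of BL/6 CD45.1 WT BM and of CD45.2 Clec9aCre/Cre BM. In Clec9aCre/Cre mice Cre replaces the Clec9a product in both alleles, so these cells lack DNGR-1, and the line was derived in BL/N embryonic stem cells and backcrossed to C57BL/6J. By the paper, each sample pooled cells of 2 mice, and WT and DNGR-1 KO cells shared the same kind of host. The total number of mice that the paper gives implies that WT and DNGR-1 KO BM samples came from the same animals. The main BM test did not pair samples. The labels do not say whether a WT sample and a DNGR-1 KO sample with the same number came from the same animals. One label field of the WT samples names CD45.2 in place of CD45.1.

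Granule proteins are made in sequence as a neutrophil matures in BM. The serine proteases and myeloperoxidase of the primary granules are transcribed first, in granulocyte and monocyte progenitors and promyelocytes. The secondary granule genes and the S100 subunits follow in myelocytes and later cells, with C/EBPε needed for the secondary set. Granule transcripts fall as the cell matures, whereas those of the S100 subunits stay high. Pre-cDCs arise from the same myeloid branch, and the sort excluded cells bearing Ly6G, the surface marker of neutrophils, among other lineage markers.

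The promoters of the primary and of the other members differed in the short motifs they held. The 250 bases before the RefSeq start of each of the 10 genes (GRCm38.p6) were searched on both strands for AGGAAGT, a core bound by PU.1, for TTNNGNAA, a relaxed C/EBP motif, and for the TATA box TATAAA. The PU.1 core was found in 4 of 4 primary members and in S100a8, that is, in 5 of 10 members, against 7.69% of all 32851 promoters of that length. The C/EBP motif was found in 0 of 4 primary members, in 3 of 4 secondary members and in both S100 genes, against 36.8% of all promoters. The letters TATAAA were found in Ctsg and S100a8, against 12.4%. In S100a8 they lay at -30 to -25 from the start on the strand of the gene. In Ctsg they lay at -237 to -232 on the opposite strand. The PU.1 core matches of the primary members are shown first because all 4 lay on the strand of the gene, with the match in capitals and up to 20 bases on each side, cut back where a GENCODE M21 exon begins.
Mpo: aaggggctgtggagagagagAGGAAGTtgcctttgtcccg
Elane: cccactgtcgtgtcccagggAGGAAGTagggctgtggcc
Prtn3: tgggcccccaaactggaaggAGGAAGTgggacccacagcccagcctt
Ctsg: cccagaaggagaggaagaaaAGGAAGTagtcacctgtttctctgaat

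These stretches lie at chr11:87793541-87793580 on the plus strand for Mpo, chr10:79886208-79886246 on the plus strand for Elane, chr10:79879553-79879599 on the plus strand for Prtn3 and chr14:56102754-56102800 on the minus strand for Ctsg. Counted from the RefSeq start, with -1 as the base before it, the match began at -223 in Mpo, -84 in Elane, -94 in Prtn3 and -206 in Ctsg. The C/EBP matches of the secondary and S100 members are shown for the genes in which a match lay outside annotated exons, the one nearest to the start in each.
Ltf: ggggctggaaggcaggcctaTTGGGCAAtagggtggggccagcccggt
Ngp: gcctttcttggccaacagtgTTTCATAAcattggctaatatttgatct
S100a8: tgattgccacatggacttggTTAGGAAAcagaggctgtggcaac
S100a9: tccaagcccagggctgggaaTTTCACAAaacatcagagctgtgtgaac

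They lie at chr9:111019197-111019244 on the plus strand for Ltf, chr9:110419686-110419733 on the plus strand for Ngp, chr3:90668934-90668977 on the plus strand for S100a8 and chr3:90695824-90695871 on the minus strand for S100a9. The match in Lcn2 lay in an annotated exon and is not shown, and Camp held none of the 3 motifs in this window. Among 7 other primary granule genes with a RefSeq promoter, 2 held the PU.1 core and 3 the C/EBP motif, and among 10 other secondary granule genes 5 and 7 did. A match describes these letters only and says nothing of binding.

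In BM Mpo was the most abundant of the members in every sample. In CPM, Prtn3 and Ctsg exceeded each secondary and S100 gene in all 6 samples, whereas Elane lay below S100a8 in 4 of 6. Mpo (ENSMUSG00000009350, chr11:87793581-87804413, plus strand), the heme peroxidase that makes hypochlorous acid, was measured at 1686, 1282 and 890 CPM in WT samples 1, 2 and 3 and at 2124, 1161 and 694 CPM in DNGR-1 KO samples 1, 2 and 3. Sample 1 was the highest in both genotypes and the genotypes overlapped. Elane (ENSMUSG00000020125, chr10:79886247-79888215, plus strand), neutrophil elastase, was measured at 161, 124 and 38.9 CPM in the WT samples and at 97.0, 95.2 and 18.1 CPM in the DNGR-1 KO samples. Like Mpo, it was lowest in sample 3 of both genotypes. It differed from the other primary members in its wider range, 8.90-fold over the 6 samples against 3.06-fold for Mpo. Prtn3 (ENSMUSG00000057729, chr10:79874476-79883174, plus strand), proteinase 3, was measured at 272, 148 and 116 CPM in WT and at 193, 129 and 135 CPM in DNGR-1 KO. Ctsg (ENSMUSG00000040314, chr14:56099881-56102574, minus strand), cathepsin G, was measured at 288, 162 and 125 CPM in WT and at 237, 141 and 173 CPM in DNGR-1 KO. Both proteases stayed within a range of 2.34-fold (Prtn3) and 2.31-fold (Ctsg) over the 6 samples.

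The secondary granule genes had wider ranges over the BM samples, 11.3-fold to 42.3-fold, and lower medians per kb than the primary genes. Ngp (ENSMUSG00000032484, chr9:110419747-110423012, plus strand), neutrophilic granule protein, was measured at 121, 12.0 and 39.96 CPM in WT samples 1, 2 and 3 and at 136, 13.1 and 20.7 CPM in DNGR-1 KO samples 1, 2 and 3. Sample 1 exceeded sample 2 by 10.04-fold in WT and by 10.4-fold in DNGR-1 KO. Ltf (ENSMUSG00000032496, chr9:111019271-111042767, plus strand), the iron-binding protein lactoferrin, was measured at 30.7, 2.07 and 25.9 CPM in WT and at 87.8, 7.60 and 7.91 CPM in DNGR-1 KO. Its 42.3-fold range over the 6 BM samples was the widest of the 10 members. Camp (ENSMUSG00000038357, chr9:109847379-109849617, minus strand), the precursor of the antimicrobial peptide CRAMP, was measured at 70.0, 4.77 and 19.3 CPM in WT and at 69.3, 8.44 and 33.3 CPM in DNGR-1 KO. Lcn2 (ENSMUSG00000026822, chr2:32384633-32388252, minus strand), the siderophore-binding lipocalin, was measured at 23.8, 4.61 and 6.91 CPM in WT and at 27.4, 2.26 and 4.41 CPM in DNGR-1 KO. In all 4 genes sample 1 was the highest and sample 2 the lowest in each genotype.

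The S100 subunits varied as the secondary granule genes did. S100a8 (ENSMUSG00000056054, chr3:90668978-90670035, plus strand) was measured at 179, 11.8 and 42.5 CPM in WT and at 149, 14.4 and 41.0 CPM in DNGR-1 KO. S100a9 (ENSMUSG00000056071, chr3:90692632-90695721, minus strand) was measured at 142, 11.5 and 40.5 CPM in WT and at 129, 13.1 and 43.3 CPM in DNGR-1 KO. The values of the subunits followed each other from sample to sample, and same-numbered samples of the genotypes were close to each other while samples of one genotype lay 9.82-fold to 15.2-fold apart at their extremes.

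**Figure D1:**
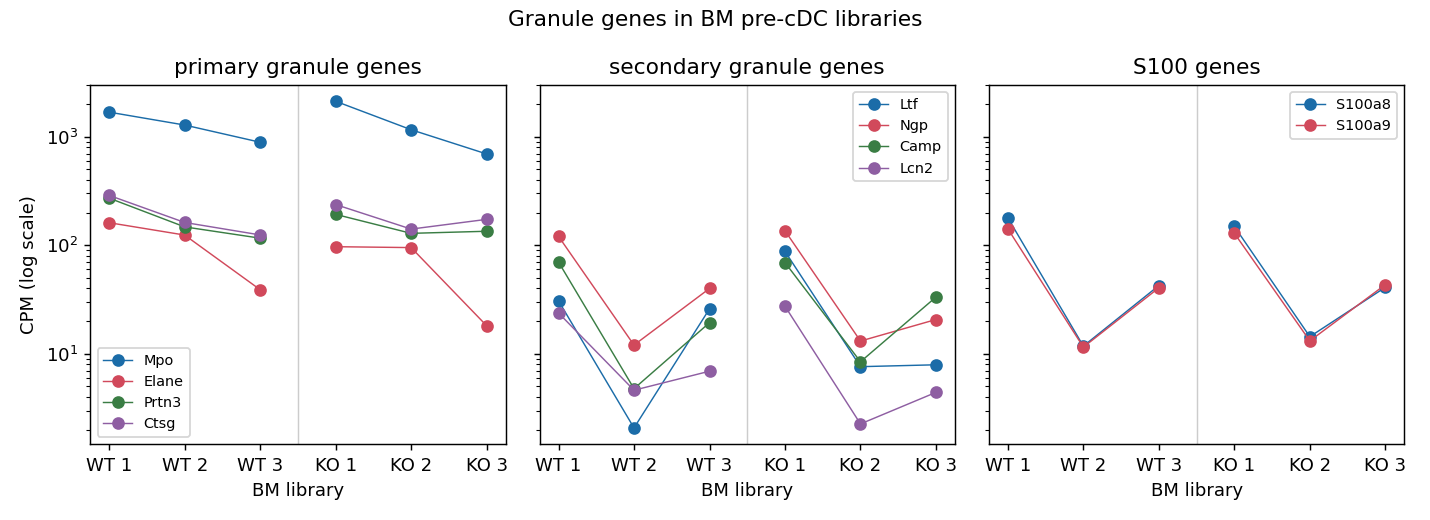
CPM of the 10 genes in each BM sample (log scale), with lines joining the 3 samples of a genotype for reading only. The secondary granule and S100 genes are lowest in sample 2 of both genotypes (Ngp 12.0 and 13.1 CPM) and highest in sample 1 (121 and 136 CPM), while Mpo stays between 694 and 2124 CPM.

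Levels of different genes were compared per kb of exon length, as CPM per kb. The BM medians over 6 samples were 357 for Mpo, 162 for Ctsg, 97.6 for Elane, 81.5 for Prtn3, 80.3 for S100a9, 60.2 for S100a8, 34.7 for Camp, 24.8 for Ngp, 4.91 for Ltf and 2.20 for Lcn2. The ranges of neighbours in this order overlapped throughout: Mpo ran from 203 to 620 CPM per kb and Ctsg from 121 to 279, and S100a9 from 22.0 to 271. Within a library, however, Mpo was the highest of the primary members in all 6. The 10 genes together took 0.112% to 0.343% of the counts of a BM library.

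The primary and secondary classes were compared within each library by their summed CPM per kb. The primary sum was 1092, 743 and 487 in WT samples 1, 2 and 3 and 1060, 647 and 467 in DNGR-1 KO samples 1, 2 and 3. The secondary sum was 209, 18.5 and 68.4 in WT and 239, 24.9 and 64.9 in DNGR-1 KO. The primary class thus varied by 2.34-fold over the BM samples and the secondary class by 12.9-fold, with the S100 sum at 13.6-fold. The primary class exceeded the secondary class by 5.22-fold, 40.2-fold and 7.13-fold in WT and by 4.44-fold, 26.0-fold and 7.19-fold in DNGR-1 KO. The ratio was therefore highest in sample 2 of both genotypes, where the secondary sum was lowest. On the log2 scale it was 3.52 ± 1.59 in WT and 3.23 ± 1.32 in DNGR-1 KO (SD, n = 3 each), a difference of -0.28 that was smaller than either SD. With one sample left out in turn the difference ran from -1.02 (without DNGR-1 KO sample 2) to 0.62 (without WT sample 2), and no test was run on this sum over chosen genes.

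**Figure D2:**
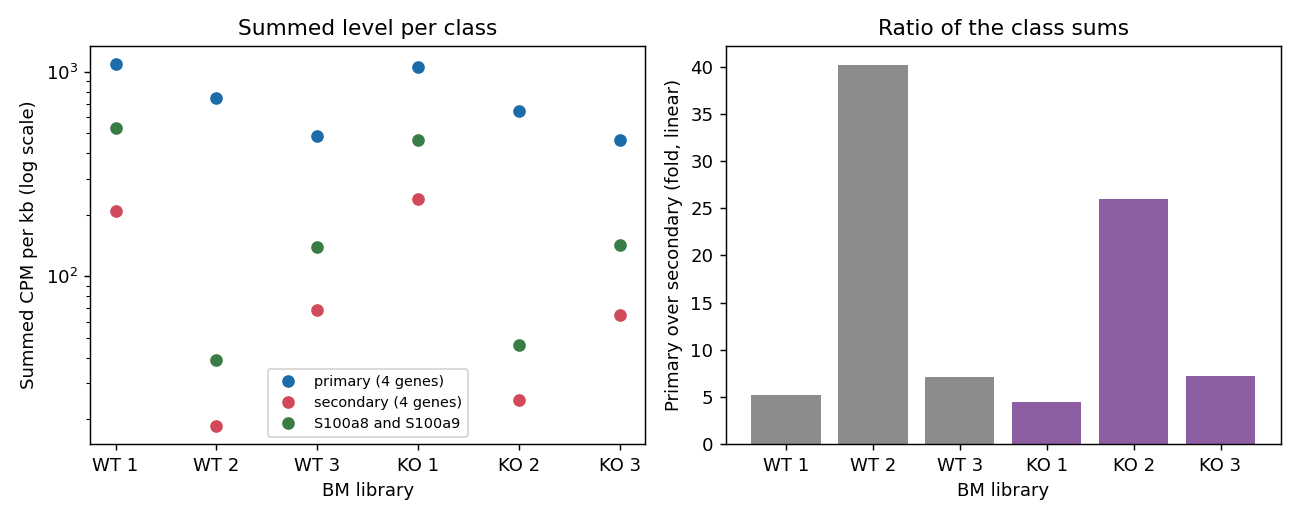
Left, summed CPM per kb of each class in the 6 BM samples (log scale). Right, the primary sum divided by the secondary sum, as bars from 0, with WT in grey and DNGR-1 KO in purple; sample 2 stands highest in both genotypes, at 40.2 and 26.0.

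The spread within a genotype was set against that of all 13016 genes tested in BM. The within-group SD on the log2 scale was 2.08 for Ltf, 1.83 for S100a8, 1.74 for Camp, 1.73 for S100a9, 1.72 for Ngp and 1.56 for Lcn2. Between 1.03% (Ltf) and 4.13% (Lcn2) of the tested genes had a larger SD than these. For Elane, with an SD of 1.25, 7.98% did, and for Mpo, Ctsg and Prtn3, with SDs of 0.66, 0.51 and 0.50, 23.6%, 36.3% and 37.6% did. The sample numbered 1 was the highest in both genotypes for 10 of 10 members, against 14.6% of all tested genes. The order sample 1, sample 3, sample 2 held in both genotypes for 6 of 6 secondary and S100 members and 0 of 4 primary members, against 3.38% of all tested genes. These orders were noticed after the values had been seen and the genes were not independent of each other, so they are given as a description.

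Markers of other cells were read in the same libraries, and their part in the spread of the granule genes was not tested. Of 12 genes of mature neutrophils, the summed level was 116, 69.3 and 68.1 CPM in WT samples 1, 2 and 3. In DNGR-1 KO samples 1, 2 and 3 it was 124, 92.5 and 122 CPM. Slpi made up most of this sum in each sample, with 83.3, 36.6 and 36.5 CPM in WT and 64.9, 53.8 and 66.7 CPM in DNGR-1 KO. The sum therefore says little of the other genes of the list. Ly6g, which encodes the antigen used to exclude neutrophils from the sort, had 16, 0 and 5 counts in WT and 19, 0 and 0 counts in DNGR-1 KO. Cxcr2, the chemokine receptor of mature neutrophils, had 16, 1 and 23 counts in WT and 47, 0 and 51 counts in DNGR-1 KO. Both were at 0 or 1 count in sample 2 of each genotype, Ly6g was highest in sample 1 and Cxcr2 in sample 3. Other genes of the list did not share this order: Mmp25, a membrane-bound metalloproteinase, had 5, 38 and 14 counts in WT and 19, 31 and 0 counts in DNGR-1 KO, and Csf3r, the G-CSF receptor, had 121, 135 and 173 counts in WT and 495, 153 and 305 counts in DNGR-1 KO. Mmp9 had 18, 0 and 26 counts in WT and 92, 0 and 26 counts in DNGR-1 KO. Retnlg had 0 counts in each WT sample and 67, 0 and 15 counts in DNGR-1 KO. In CPM, Padi4 was lowest in WT sample 1 and Ltb4r1 in WT sample 3. Fpr2 and Stfa2l1 did not exceed 3 counts in any BM library. Apart from Slpi and Ltb4r1, these genes of the mature neutrophil list were named after their values had been seen. The summed level of 12 cDC genes was lowest in sample 1 of each genotype, at 4175 CPM (WT) and 4553 CPM (DNGR-1 KO). It lay between 6623 and 11312 CPM in the other BM samples, highest in WT sample 3 and DNGR-1 KO sample 2. Irf8 and Cd74 were its largest parts in every BM sample. Irf8 and Cd209a were not lowest in WT sample 1, and Zbtb46, Irf4 and Sirpa were lowest in DNGR-1 KO sample 3. The other genes of the list were lowest in sample 1 of both genotypes. These cDC genes were named after their values had been seen. The erythroid list summed to 4304, 2498 and 1575 CPM in WT samples 1, 2 and 3 and to 2142, 252 and 881 CPM in the DNGR-1 KO samples, and the T and NK cell list to 33.5, 17.7 and 16.6 CPM and to 43.9, 14.6 and 21.3 CPM. Both sums were highest in sample 1 of each genotype, as the granule genes were. Car2 made up most of the erythroid sum and Nkg7 most of the T and NK cell sum in each BM sample. The globin genes of the erythroid list were highest in WT sample 1 but in DNGR-1 KO sample 3. Hba-a1, for example, had 67.1, 32.0 and 86.5 CPM in DNGR-1 KO samples 1, 2 and 3. These genes were named after their values had been seen. The stem and progenitor list summed to 189 to 459 CPM and the monocyte list to 2872 to 5352 CPM in BM. DNGR-1 KO sample 1 also carried 666 counts of Prg2, which encodes eosinophil major basic protein and was singled out after its values had been seen, against at most 6 counts in any other BM sample, and the eosinophil, basophil and mast cell list summed to 85.2 CPM there and to 9.98 to 32.8 CPM in the others. In bulk samples a change in the number of cells that carry a transcript and a change in its amount per cell cannot be told apart.

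**Figure D3:**
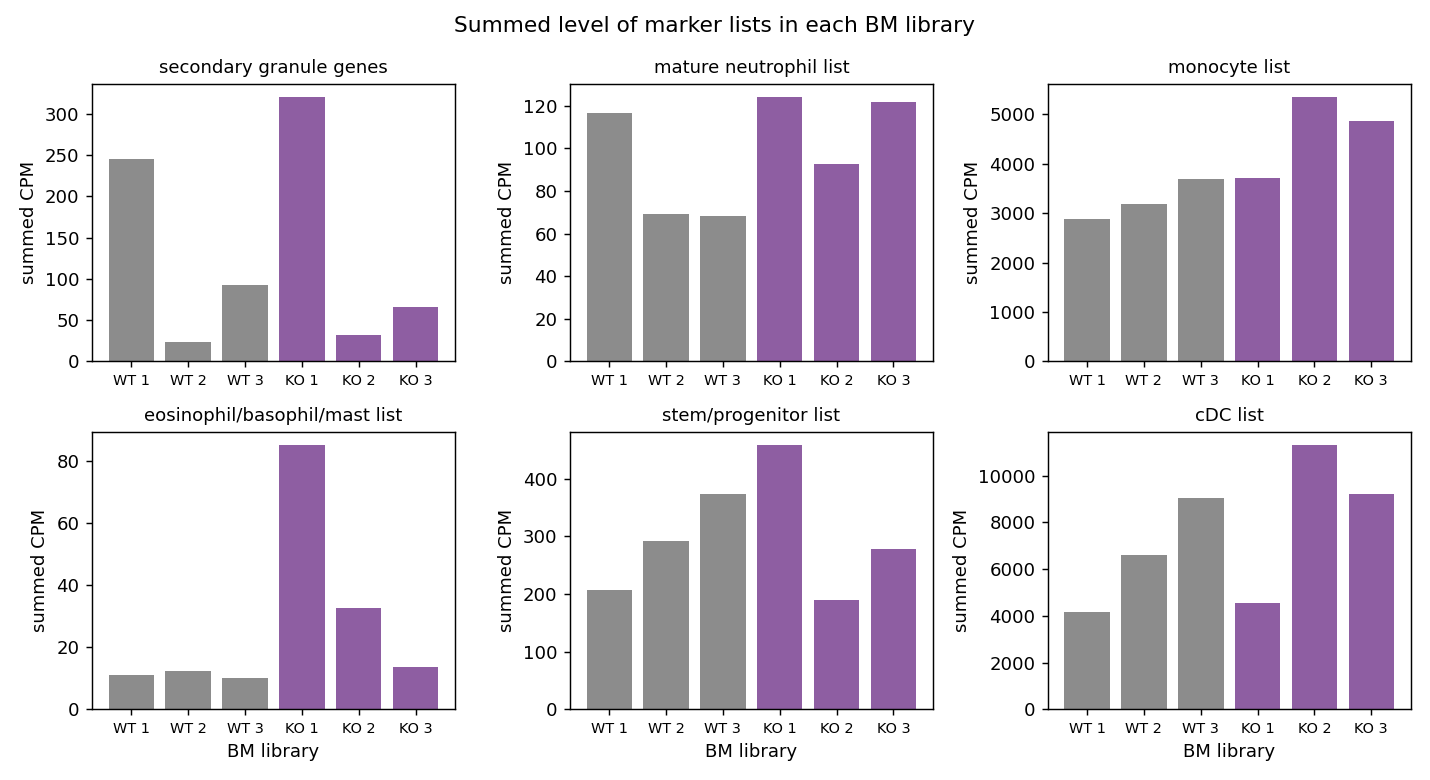
Summed CPM of the 4 secondary granule genes and of 5 marker lists in each BM sample (bars from 0; WT grey, DNGR-1 KO purple). Sample 1 of each genotype has the highest secondary granule sum (245 and 320 CPM) and the lowest cDC sum of its genotype (4175 and 4553 CPM). Slpi makes up most of the mature neutrophil sum in each sample.

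The first comparison asked whether loss of DNGR-1 in a cell was accompanied by a change of these genes in BM pre-cDCs. Clec9a, the targeted gene, had 905 to 1766 counts in the WT BM samples and 1 count in each DNGR-1 KO BM sample, as the labels say. Of the 10 granule genes, 0 were higher and 0 were lower past the threshold (adjusted p of 0.05, edgeR's quasi-likelihood test), 0 had an unadjusted p under 0.05, and DESeq2 and limma-voom also called 0. Over all genes tested, 4 of 13016 were called, or 0.0307%. The WT and DNGR-1 KO values overlapped for 10 of 10 members, where 9.54% of all tested genes had groups that did not overlap.

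Among the primary members, the level of Mpo was 1286 ± 398 CPM for WT against 1326 ± 729 CPM for DNGR-1 KO (SD, n = 3 each), a log2 fold change of 0.03 with an SE of 0.39 (adjusted p = 0.988). Elane had the lowest log2 fold change of the 10, -0.64 with an SE of 0.62 (adjusted p = 0.870). Prtn3 and Ctsg had values of -0.24 (SE 0.33) and -0.07 (SE 0.33). The primary genes were thus measured most precisely, with SEs of 0.33 to 0.62. The secondary and S100 genes had SEs of 0.87 to 1.02. In this group Ltf had the highest value, 0.80 with an SE of 1.02 (adjusted p = 0.898), which turned to -1.34 without DNGR-1 KO sample 1. Camp stood at 0.23, Ngp at -0.04, Lcn2 at -0.06, S100a9 at -0.08 and S100a8 at -0.20. The median log2 fold change was -0.16 for the 4 primary genes, 0.09 for the 4 secondary genes and -0.14 for the S100 pair, beside -0.00447 for all genes tested.

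**Figure D4:**
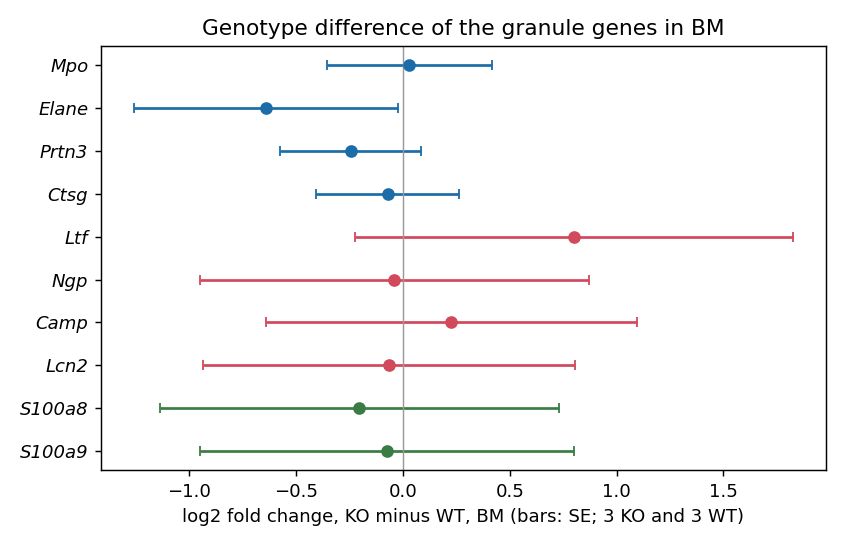
Log2 fold change of each gene in BM, DNGR-1 KO minus WT, with bars of 1 SE (3 samples per genotype; primary blue, secondary red, S100 green). Only the bar of Elane, at -0.64 with an SE of 0.62, ends short of 0, and 0 of 10 genes passed the test.

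Other genes of the granule programme gave no calls in BM either. Of 10 other primary granule genes tested 0 were called and 2 had an unadjusted p under 0.05, with a median log2 fold change of 0.26, and of 11 tested among 13 other secondary granule genes 0 were called and 1 had an unadjusted p under 0.05, with a median of 0.44. Of 7 tested among 12 mature neutrophil genes 0 were called and 1 had an unadjusted p under 0.05, and of 7 tested among 12 transcription factors that act on granule genes 0 were called and 0 did. DESeq2 and limma-voom called 0 in each of these lists as well, with 0 to 2 unadjusted p values under 0.05. By mean count the leading genes of these lists were Hsp90b1 (log2 fold change 0.53, SE 0.23) and Calr (0.28, SE 0.19), chaperones that fold granule proteins, Lyz2 (0.44, SE 0.24), lysozyme, Anxa1 (0.53, SE 0.26), the annexin stored in neutrophil granules, Slpi (0.23, SE 0.34), the protease inhibitor, Ltb4r1 (0.55, SE 0.31), the leukotriene B4 receptor, and Irf8 (0.22, SE 0.25) and Spi1 (0.17, SE 0.31), the factor IRF8 of the monocyte and cDC1 lineages and PU.1. Cebpe, the gene of C/EBPε, had 16, 7 and 3 counts in WT and 33, 5 and 0 counts in DNGR-1 KO, and Cebpb had at most 2 counts in any BM library. Cebpa was present at 8.24 to 11.8 CPM in all 6. Cebpe, Cebpb and Cebpa were named after their values had been seen. In the lists of other cell types 0 genes were called between the genotypes in BM by edgeR, DESeq2 or limma-voom; by edgeR 2 monocyte genes, 2 eosinophil, basophil and mast cell genes and 1 cDC gene had an unadjusted p under 0.05.

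In spleen pre-cDCs the granule genes were nearly absent. All 10 members were lower in spleen than in BM past the threshold (edgeR's quasi-likelihood test over 9 samples with genotype as a covariate), against 12.3% of 13468 tested genes that were lower and 7.28% that were higher, and 0 of 10 were higher. In 10 of 10 members all 3 spleen samples lay below all 6 BM samples, against 17.7% of all tested genes. With counts this low in spleen, the members passed the filter on low counts through the BM samples, so their direction was fixed beforehand. The calls, shares and adjusted p values of the members in this comparison are therefore given as a description. The median log2 difference of all genes tested, spleen minus BM, was -0.18.

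The primary genes had 18 counts of Mpo, 4 of Ctsg, 91 of Prtn3 and 0 of Elane over the 3 spleen samples, against 154855, 21968, 19244 and 10306 over the 6 BM samples. In CPM pooled over the samples of a tissue, BM exceeded spleen by 4267-fold for Mpo (95% exact interval 2700 to 7201) with an adjusted p of 1.16e-04, by 2724-fold for Ctsg (1064 to 9999) with 4.53e-05 and by 105-fold for Prtn3 (85.4 to 130) with 0.00162. These intervals cover counting error only. Elane was at least 1704-fold higher in BM (adjusted p = 0.00122), a bound set by 3 counts over the spleen samples together. These folds rest on single libraries. Spleen WT sample 2 held 82 of the 91 counts of Prtn3, and without it BM exceeded spleen by 755-fold (398 to 1652) for Prtn3. Spleen DNGR-1 KO sample 2 held 17 of the 18 counts of Mpo and all 4 of Ctsg, and without it the fold of Mpo, against 1 count, was 45738 (interval 8209 to 1806560) and Ctsg was at least 2163-fold higher in BM. The order of the folds among the primary genes is therefore not given.

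The secondary and S100 genes had 0 counts in spleen WT sample 2 and in spleen DNGR-1 KO sample 1, and at most 2 counts of a gene in spleen DNGR-1 KO sample 2. BM exceeded spleen by 1829-fold for S100a9 (506 to 15107), 1667-fold for Ngp (461 to 13771), 995-fold for Camp (275 to 8219) and 822-fold for Ltf (227 to 6794), each against 2 counts, all of them in spleen DNGR-1 KO sample 2. Without that sample the bounds were at least 726-fold for S100a9, 662-fold for Ngp, 395-fold for Camp and 326-fold for Ltf. S100a8 was at least 1399-fold and Lcn2 at least 225-fold higher in BM. The adjusted p values of the 6 genes ran from 0.00221 (S100a9) to 0.00746 (Lcn2). At 2 counts or fewer the order of these folds follows the BM level and the depth and is not an order of loss.

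**Figure D5:**
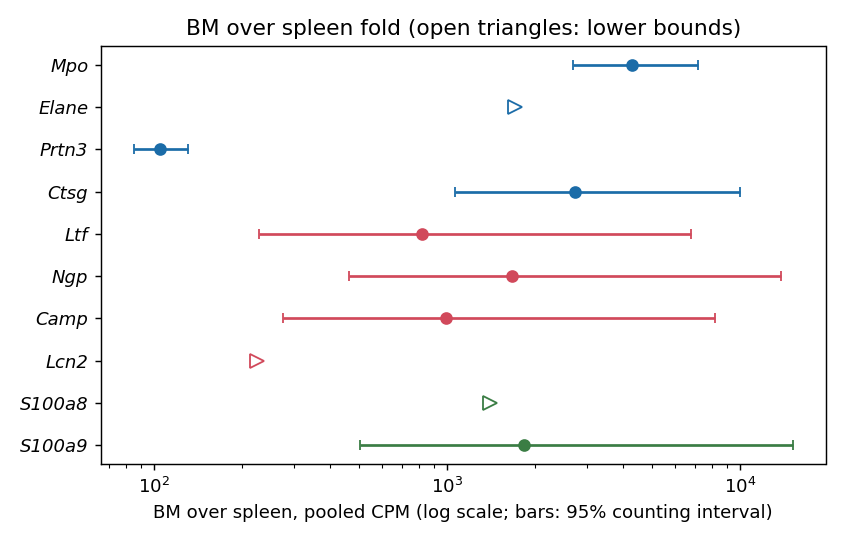
BM over spleen fold of each gene from pooled CPM (log scale), with 95% exact counting intervals; open triangles are lower bounds for the 3 genes with 0 counts in spleen. The fold is 105 for Prtn3, 82 of whose 91 spleen counts lay in the WT sample, and 4267 for Mpo, 17 of whose 18 lay in DNGR-1 KO sample 2.

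Prtn3 was uneven among the spleen samples, with 82 counts in WT sample 2 and 6 and 3 counts in DNGR-1 KO samples 1 and 2. This was not particular to Prtn3. In the same order, Hp had 215, 0 and 1 counts, Cd177 had 207, 0 and 2, and Mmp9 had 394, 20 and 0. Slpi went the other way, with 77, 548 and 1737 counts, and Fpr1 had 120, 0 and 130. These genes of the lists were named after their values had been seen. For Prtn3 the WT sample exceeded the pooled DNGR-1 KO samples by 22.5-fold (95% exact interval 11.3 to 51.0, counting error only). Mpo went the other way, with 1 count in WT and 0 and 17 counts in DNGR-1 KO. With 1 WT sample there was no test of genotype in spleen. In spleen DNGR-1 KO sample 2, the only spleen library with any secondary granule count, 24 counts came from the primary class and 6 from the secondary class.

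Other genes of the granule programme moved in both directions. Of the 10 other primary granule genes 2 were higher and 3 lower in spleen past the threshold (4 lower by each of DESeq2 and limma-voom), with a median log2 difference of -0.29. Srgn, the proteoglycan serglycin that binds granule proteases, was higher by a log2 value of 1.13 (SE 0.26), and Ctsc, the dipeptidyl peptidase that activates the granule serine proteases, by 0.70 (SE 0.19). Serpinb1a, which inhibits elastase and cathepsin G, had a log2 difference of -1.18 (SE 0.29) and Prss57, a serine protease of the same granules, of -1.69 (SE 0.37). Ms4a3, a membrane protein of granulocyte and monocyte progenitors named after its values had been seen, had 51 to 376 counts in BM samples and 0 in each spleen sample. Of the 11 other secondary granule genes tested, 3 were higher and 4 lower, with a median log2 difference of -2.49. Anxa1 was higher in spleen by 1.95 (SE 0.33), Cybb, the NADPH oxidase subunit gp91phox, by 2.35 (SE 0.49) and Pglyrp1, a peptidoglycan-binding protein, by 3.26 (SE 0.31) on the log2 scale. Chil3, the chitinase-like protein Ym1, was lower, with 1 count over the 3 spleen samples. The other 3 lower genes, Fcnb, Mmp8 and Wfdc21, named after their values had been seen, had 0 counts in each spleen sample. Ms4a3, Chil3, Fcnb, Mmp8 and Wfdc21 passed the filter on low counts through the BM samples, so their direction was fixed beforehand.

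Of the 7 mature neutrophil genes tested 0 were higher and 1 was lower in spleen, Padi4, the histone-citrullinating enzyme, with 31 to 194 counts in BM samples and 0 or 1 count in spleen samples. DESeq2 called 3 of these genes lower and limma-voom 2. Padi4 passed the filter on low counts through the BM samples, so its direction was fixed beforehand. Among 8 tested regulators, Irf8 was lower with a log2 difference of -1.35 (SE 0.33) and Myb, a factor of cycling progenitors, with -2.50 (SE 0.71). Lef1 was higher, with 94 to 3846 counts in spleen samples and at most 6 counts in BM samples, and passed the filter on low counts through spleen. Spi1 (-0.08, SE 0.36), Cebpa (-0.21, SE 0.44) and Runx1 (-0.15, SE 0.23) did not pass the test and were also named after their values had been seen. The spleen libraries also differed from BM in other markers, whose part in the loss of granule genes was not tested. T and NK cell genes were higher for 6 of 6 tested of the 8 listed and summed to 660 to 3103 CPM in spleen against 14.6 to 43.9 CPM in BM. Cd3d, Cd3e, Cd3g, Trbc2 and Gzma, named after their values had been seen, had at most 11 counts in any BM sample. They passed the filter on low counts through the spleen samples, so their direction was fixed beforehand. Erythroid genes were higher for 5 and lower for 1 of 8 tested and summed to 8693 to 50480 CPM in spleen. Of 7 stem and progenitor genes 5 were lower (6 by each of DESeq2 and limma-voom). Of the lower ones, Gata2, Hlf and Hoxa9 had 0 counts in each spleen sample. So had Mcpt8 and Cpa3, the lower genes of the eosinophil, basophil and mast cell list. All of them passed the filter on low counts through the BM samples, so their direction was fixed beforehand. They were named after their values had been seen. Of the cDC genes 3 were higher and 1 was lower of 12 by edgeR, against 6 and 1 by DESeq2 and 5 and 1 by limma-voom. Of the monocyte genes 1 was higher and 1 lower of 9, of the eosinophil, basophil and mast cell genes 1 was higher and 2 lower of 4, 1 of 3 B cell genes was lower (2 by each of the other tools), and of 5 pDC genes edgeR called 0, with 2 at an unadjusted p under 0.05, where DESeq2 and limma-voom each called 1 higher and 1 lower.

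The genes whose pattern over the 9 samples was most like that of Mpo and of Ngp were found among 15813 genes, by the root mean square difference of log2 CPM centred on each gene's mean. The 5 most like Mpo were Car1, a carbonic anhydrase (1.32), Ccnf, cyclin F (1.43), Cenpf, a kinetochore protein (1.51), Bub1, a spindle checkpoint kinase (1.61), and Ska3, a kinetochore protein (1.63), against a median of 5.74 over all other genes. Of the members, Ctsg was at 1.07, Elane at 1.65 and Prtn3 at 2.74 from Mpo. The secondary and S100 members lay at 2.12 (S100a8) to 3.06 (Lcn2) from Mpo. The 5 most like Ngp were Chil3 (0.48), Abcg2, an efflux transporter (0.85), Egfl7, an endothelial factor (0.86), Muc13, a transmembrane mucin (0.88), and Tmem119 (0.94), against a median of 3.93. Of the members, S100a9 was at 0.34, S100a8 at 0.47 and Camp at 0.62 from Ngp. The difference between BM and spleen dominates this measure. In CPM, Chil3, Egfl7 and Muc13 were highest in sample 1 and lowest in sample 2 of both genotypes. Chil3 had 1143, 103 and 554 counts in WT and 2367, 290 and 594 counts in DNGR-1 KO.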

How the data were processed

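The authors deposited expected counts per gene, not normalized, for 9 samples; the submitters' processing notes name Trimmomatic 0.36, STAR 2.5.2, RSEM 1.3.0 and GRCm38, with no role given. Counts were rounded here. Libraries held total RNA depleted of ribosomal RNA (KAPA Hyper prep with Riboerase). Library totals were 17103806 to 23722298 counts, so 3 counts equal 0.126 to 0.175 CPM (counts scaled to a fixed library total). The expected counts of Mpo were not whole in 6 of 9 samples (tolerance 0.005), as when reads are divided between features; those of the other members were whole. Symbols, coordinates and exon lengths came from GENCODE M21.

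Tests used edgeR 4.0.16 in R 4.3.3 (TMM, filterByExpr, quasi-likelihood test, Benjamini-Hochberg adjustment over all genes tested), with DESeq2 1.42.0 and limma 3.58.1 as alternatives. CPM values are TMM-normalized. A fold over pooled counts has an exact 95% counting interval; the floor is 3 counts over the group. The scripts were tested on simulated data. The deposited log2-scale variance-stabilized values were not used here. The members and the gene lists were chosen with earlier results of these data known. All 10 members are named. Of a list, at most the 4 genes of highest mean count that passed the test are named, or the 2 of highest mean count where none passed, plus the 5 genes most like Mpo and Ngp, and Clec9a; exceptions are marked. Replicate numbers come from the sample titles.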

Additional observations from a re-analysis of the deposited data

Results flagged for a closer look

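For the 6 BM samples, the gap between the extreme value and its nearest neighbour, divided by the whole range, was computed for 26 quantities (the 10 genes, 4 class measures and 12 marker lists), and 3 exceeded Dixon's critical value for 6 samples. About 1 in 20 quantities would do so by chance. Ltf in DNGR-1 KO sample 1, at 87.8 CPM against 30.7 CPM in the next sample, had a gap of 0.665 of the range. The eosinophil, basophil and mast cell list had a gap of 0.697 in the same sample, with a sum of 85.2 CPM against 32.8 CPM in the next. The B cell list had a gap of 0.649 in DNGR-1 KO sample 3, with 66.1 CPM against 50.4 CPM.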

How the results depend on the processing

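In BM, 0 of 10 members passed the threshold under every alternative run. The log2 fold changes of 9 of them, all but Elane, changed sign under at least 1 alternative: with limma-voom, Mpo was -0.063, S100a8 0.023 and S100a9 0.082. With the score of the chromosome 1 congenic genes as a covariate, Ctsg was 0.10, S100a8 0.67, S100a9 0.64, Ngp 0.58 and Lcn2 0.49. Leaving out each sample in turn gave -0.48 to 0.34 for Mpo, -0.48 to 0.20 for Prtn3, -0.30 to 0.35 for Ctsg, -1.49 to 1.32 for S100a8, -1.20 to 1.24 for S100a9, -1.34 to 1.28 for Ltf, -1.77 to 1.11 for Ngp, -0.59 to 1.61 for Camp and -1.82 to 0.97 for Lcn2. Elane kept its sign in all 14 alternatives, at -1.04 to -0.18. The cause of these changes was not tested. Over all genes, 4 were called in BM, 11 with DESeq2, 10 with no filter and 2 to 15 with one sample left out, 15 of them without DNGR-1 KO sample 1. For spleen against BM, 10 of 10 members stayed lower in every alternative that could be run except with DNGR-1 KO samples only, where 9 did, Lcn2 having an adjusted p of 0.0518 by edgeR. A filter of at least 10 counts in every sample left no member in that comparison. Over all genes 2631 were called, 1336 in DNGR-1 KO samples only.

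With the replicate number as a block, 4 genes were called in BM and 1246 between tissues, Mpo was at -0.066 and S100a9 at 0.040 in BM, and no other member changed sign or call. Between genotypes, samples of one number had deviations that correlated over 13016 genes at 0.103, 0.0989 and -0.0815. WT samples 1 and 3 correlated best with another number. Deviations from a mean of 3 samples cannot decide whether same-numbered samples shared animals. The main test was left unpaired, and the fit with the block is given beside it.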
